A study of Mus musculus with 4 samples.

Results

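Cholesterol synthesis was examined in dendritic cells (DC) of the mouse spleen, 24 h after injection of the dioxin TCDD or of its solvent DMSO. The genes were chosen as a pathway: 8 genes under the sterol-sensing transcription factor SREBP2, namely Hmgcs1, Idi1, Fdps, Fdft1, Sqle, Cyp51, Msmo1 and Insig1. All probe sets annotated to 1 of these symbols were taken, which gave 17 probe sets of 7 genes, among 22626 probe sets and 12393 genes with a symbol of their own in the series. No probe set analysed here carried the symbol Insig1, and genes of LDL uptake are not analysed here. None of the 17 probe sets passed the test between TCDD and DMSO. The pattern in these genes lay inside the TCDD group. In TCDD replicate 2 the brighter probe sets of Hmgcs1, Idi1, Sqle and Cyp51 stood 0.80 to 1.45 log2 units under the DMSO mean. On these, TCDD replicate 1 stood near or above the DMSO arrays. In TCDD replicate 2, 2 of the 4 Fdft1 probe sets and 1 of the 2 of Fdps stood 0.80 to 1.05 above the DMSO mean.

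The TCDD group consisted of 2 arrays from female C57BL/6 mice given 10 µg/kg TCDD in corn oil by intraperitoneal injection. The DMSO group consisted of 2 arrays from female mice of the same strain given DMSO in corn oil in the same way. The labels give 3 mice per group, 8 to 12 weeks old, with spleens pooled, DC enriched on a density gradient and sorted magnetically to over 90% purity, and RNA amplified before labelling. The labels do not say whether each array had mice of its own, so p-values measure the spread between these arrays, which may be technical.

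Mammalian cells build cholesterol from acetyl-CoA through mevalonate, isoprenoid pyrophosphates, squalene and lanosterol. The enzymes are controlled together. When sterols in the endoplasmic reticulum run low, the escort protein Scap carries SREBP2 to the Golgi, proteases release its active part, and that part switches on the genes of the pathway, whereas sterols and the Insig proteins hold the complex back. TCDD binds the aryl hydrocarbon receptor (AhR), a ligand-activated transcription factor, and lower expression of cholesterol synthesis genes after AhR activation is known from liver.

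Values are given as log2 values after RMA, which corrects background, normalizes the arrays to each other and summarizes the probes of a probe set. They were deposited with 1 decimal. The arrays had medians of 6.0 and 5.9 in TCDD replicates 1 and 2, against 5.9 and 5.9 in DMSO. A probe set was called dim where its mean over the 4 arrays lay under 5.53, the 40th percentile of all probe sets; 12 of the 17 lay above it and 5 below. Ahrr, the AhR repressor gene and a direct AhR target, stood at 7.2 and 7.8 in TCDD, against 5.5 and 5.2 in DMSO, whereas Cyp1a1, the most used AhR marker, stood at 5.4 and 5.3 in TCDD and at 5.3 and 5.3 in DMSO. Of the 10 measured DC markers, Flt3 stood at 8.8 and 9.2 in TCDD, against 9.6 and 9.0 in DMSO, and Itgax at 9.1 and 9.4, against 9.6 and 10.1. The marker Xcr1 was dim, with 5.3 and 5.3 in TCDD and 5.5 and 5.2 in DMSO. Sirpa stood at 8.1 and 8.4 in TCDD, against 9.2 and 9.4 in DMSO, on its brightest probe set. Its other probe sets were not dim and overlapped. They stood at 7.1 and 6.8 in TCDD, against 7.2 and 7.0 in DMSO, and at 5.7 and 5.5, against 5.4 and 5.5. The median over the 10 was 7.8 and 8.15 in TCDD, against 8.5 and 8.6 in DMSO, and 7 of 10 lay under both DMSO arrays in TCDD replicate 1 and 4 of 10 in TCDD replicate 2. TCDD replicate 1 stood apart in the 3′ to middle gap of control genes and in some neutrophil markers. The 3′ control probe set of Gapdh exceeded the middle one by 3.6 and 2.0 in the TCDD arrays, against 1.5 and 2.1 in DMSO, and for beta-actin the gap was 4.0 and 2.0, against 1.9 and 2.1. The neutrophil gene S100a8 stood at 10.3 and 5.6 in TCDD, against 6.4 and 5.9 in DMSO. Other neutrophil markers differed from this. Camp was higher in both TCDD arrays, at 6.9 and 6.5, against 5.6 and 5.1 in DMSO. Elane was flat, at 6.5 and 6.6 in TCDD and 6.6 and 6.6 in DMSO.

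Hmgcs1 encodes the cytosolic synthase that makes HMG-CoA, the substrate of the step that commits carbon to mevalonate. Its brightest probe set, 1433443_a_at, stood at 10.7 and 8.1 in TCDD, against 9.2 and 9.6 in DMSO. The highest and the lowest of the 4 values were thus both TCDD arrays, 2.46 times and 0.406 times the DMSO mean, and the DMSO pair lay between them. The group difference was 0.00 (SE 1.07, n = 2 arrays per group), which says nothing of the gap of 2.6 between the TCDD arrays. The probe set 1433445_x_at stood at 7.6 and 6.3 in TCDD, against 7.1 and 7.6 in DMSO. The probe set 1433444_at stood at 6.7 and 5.3 in TCDD, against 6.1 and 6.9 in DMSO. In both, TCDD replicate 2 was the lowest array and TCDD replicate 1 lay within the DMSO range or at its upper edge. The fourth probe set, 1433446_at, was dim and flat at 4.6 and 4.7 in TCDD and 4.7 and 4.7 in DMSO.

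Idi1 encodes the isomerase that interconverts isopentenyl and dimethylallyl pyrophosphate, the building blocks of all isoprenoids. Its probe set 1423804_a_at showed the widest gap between the TCDD arrays among the 17, with 7.5 and 4.5 in TCDD, against 5.9 and 6.0 in DMSO. The value in TCDD replicate 1 was 2.93 times the DMSO mean and that in TCDD replicate 2 was 0.366 times. The other Idi1 probe set, 1451122_at, stood at 6.8 and 5.8 in TCDD, against 6.9 and 7.0 in DMSO. There both TCDD arrays lay under both DMSO arrays, replicate 1 by 0.1 and replicate 2 by over 1 unit, and the difference of -0.65 (SE 0.413) had an adjusted p of 0.536 in limma. The 2 probe sets of this gene therefore placed TCDD replicate 2 alike and TCDD replicate 1 on opposite sides of DMSO.

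Cyp51 encodes the lanosterol demethylase of the sterol branch. Its brightest probe set, 1450646_at, stood at 7.3 and 6.3 in TCDD, against 7.0 and 7.4 in DMSO, so TCDD replicate 2 was again the lowest array and TCDD replicate 1 lay inside the DMSO range. The dim probe set 1422533_at stood at 5.4 and 5.0 in TCDD, against 5.4 and 5.6 in DMSO. The dim 1422534_at stood at 5.1 and 4.4 in TCDD, against 4.7 and 4.9 in DMSO. In all 3 Cyp51 probe sets the lowest value was that of TCDD replicate 2.

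Sqle encodes squalene epoxidase, which adds the first oxygen on the way to sterols and is a rate-controlling step. Its single probe set, 1415993_at, stood at 6.0 and 5.3 in TCDD, against 6.1 and 6.1 in DMSO. Both TCDD arrays lay under the DMSO pair, replicate 1 by 0.1, and the difference was -0.45 (SE 0.291; limma adjusted p = 0.538).

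**Figure D1:**
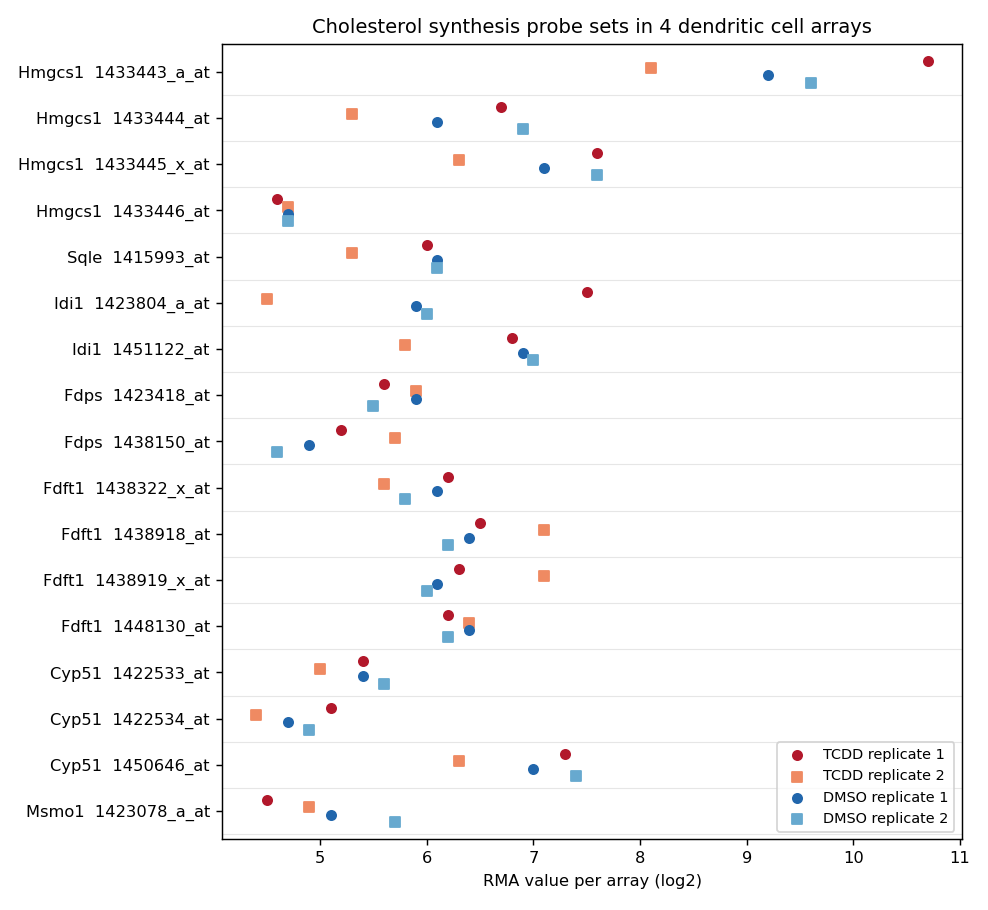
RMA value (log2, horizontal axis) of each of the 17 probe sets of the cholesterol synthesis genes (rows) in the 2 TCDD arrays (red and orange) and the 2 DMSO arrays (blue), with every array as 1 point. In the brighter probe sets of Hmgcs1, Idi1, Sqle and Cyp51 the TCDD replicate 2 point lies to the left of the DMSO points, as for Idi1 1423804_a_at with 4.5 against 5.9 and 6.0, and for 2 Fdft1 probe sets it lies to their right at 7.1.

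Upstream sequences of Hmgcs1, Idi1 and Cyp51 are shown because their bright probe sets were lowest in TCDD replicate 2 and because RefSeq windows were at hand for them; the tables matched 5 of the 8 genes. Each run holds the 250 bases before the annotated start of the gene on its own strand (RefSeq, GRCm38.p6). Capitals mark the letters searched on both strands: TCACCCC and CACNCCA for the sterol regulatory element bound by SREBP2, CCAAT for NF-Y, a factor that works with SREBP2, and GCGTG for the AhR core.
Hmgcs1: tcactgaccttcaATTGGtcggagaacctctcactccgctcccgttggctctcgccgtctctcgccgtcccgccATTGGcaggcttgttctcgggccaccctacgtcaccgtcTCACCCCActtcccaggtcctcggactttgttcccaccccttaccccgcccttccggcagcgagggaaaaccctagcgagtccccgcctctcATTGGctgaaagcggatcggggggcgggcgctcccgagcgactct
Idi1: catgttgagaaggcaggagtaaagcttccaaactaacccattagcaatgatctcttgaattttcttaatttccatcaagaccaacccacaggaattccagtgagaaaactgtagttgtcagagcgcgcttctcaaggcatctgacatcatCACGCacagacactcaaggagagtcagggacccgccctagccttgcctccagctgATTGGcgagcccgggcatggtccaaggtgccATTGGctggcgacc
Cyp51: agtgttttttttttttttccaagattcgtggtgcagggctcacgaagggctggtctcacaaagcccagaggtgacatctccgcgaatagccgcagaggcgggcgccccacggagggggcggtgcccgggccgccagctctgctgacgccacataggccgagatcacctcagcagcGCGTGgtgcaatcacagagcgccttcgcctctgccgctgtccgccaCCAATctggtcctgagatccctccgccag
The Hmgcs1 run lies at chr13:119690101-119690350 on the plus strand, the Idi1 run at chr13:8885356-8885605 on the plus strand and the Cyp51 run at chr5:4104698-4104947 on the minus strand. In Hmgcs1 the letters TCACCCC begin 137 bases before the start and overlap a match to CACNCCA that begins 136 bases before it. Neither sterol motif was found in the Idi1 or Cyp51 run. The letters TCACCCC occurred in 4.31% of 32851 RefSeq windows of the same length and CACNCCA in 15.6%. CCAAT was found 3 times in Hmgcs1, 2 times in Idi1 and 1 time in Cyp51, as well as in the windows of Msmo1 and Insig1, against 33.8% of all windows. GCGTG was found in Idi1, 100 bases before the start, and in Cyp51, 75 bases before it, and was not found in Hmgcs1; the windows of Msmo1 and Insig1 held it too, as did 28.2% of all windows. CACNCCA was also found in the windows of Msmo1 and Insig1. A match describes letters in a window and not a bound site.

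Fdps and Fdft1, the enzymes between Idi1 and Sqle, had no probe set in which TCDD replicate 2 lay at least 0.5 under both DMSO arrays. Fdps makes farnesyl pyrophosphate, the branch point to sterols, dolichol and prenylated proteins. Its probe set 1438150_at, which was dim, stood at 5.2 and 5.7 in TCDD, against 4.9 and 4.6 in DMSO. Both TCDD arrays lay above both DMSO arrays, with a difference of 0.70 (SE 0.245; limma adjusted p = 0.409). The other Fdps probe set, 1423418_at, stood at 5.6 and 5.9 in TCDD, against 5.9 and 5.5 in DMSO, and the groups overlapped. Fdft1 encodes squalene synthase, which joins a pair of farnesyl groups and commits carbon to sterols. Its probe set 1438919_x_at stood at 6.3 and 7.1 in TCDD, against 6.1 and 6.0 in DMSO, a difference of 0.65 (SE 0.333; limma adjusted p = 0.444). The probe set 1438918_at stood at 6.5 and 7.1 in TCDD, against 6.4 and 6.2 in DMSO, a difference of 0.50 (SE 0.264; limma adjusted p = 0.465). In both, TCDD replicate 2 was the highest of the 4 arrays and TCDD replicate 1 lay just above DMSO, by 0.1 to 0.2. The remaining probe sets of Fdft1 did not share this. The probe set 1448130_at stood at 6.2 and 6.4 in TCDD and 6.4 and 6.2 in DMSO, and 1438322_x_at at 6.2 and 5.6 in TCDD, against 6.1 and 5.8 in DMSO, with TCDD replicate 2 lowest. In Affymetrix names, _a_at marks a probe set shared by transcripts of 1 gene, and _x_at one that holds probes which may also bind other transcripts.

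Msmo1 encodes the methylsterol oxidase that acts after Cyp51. It had 1 dim probe set, 1423078_a_at, at 4.5 and 4.9 in TCDD, against 5.1 and 5.7 in DMSO. Both TCDD arrays lay under both DMSO arrays, with a difference of -0.70 (SE 0.30; limma adjusted p = 0.441). It was the one member in which TCDD replicate 1 lay at least 0.5 under both DMSO arrays.

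Across the pathway, limma called 0 of 17 probe sets at an adjusted p under 0.05, and 0 of all 22626 (0%). At an unadjusted p under 0.05 it found 0 of the 17 as well, against 13.1% of all probe sets. Unadjusted counts with a TCDD array left out are not given, since a single TCDD array then remains. In simulated data rounded like the deposited values the fit missed changes of 1 log2 unit that it found in unrounded values. Every simulated probe set had the same spread, unlike in these data, so the simulation does not show what the fit could find here. With 2 arrays per group, a count of 0 does not show that these genes did not differ. An exact permutation test of 2 against 2 arrays cannot go below p = 0.33, so none was run. Both TCDD arrays lay under both DMSO arrays in 3 of the 17 probe sets (Idi1 1451122_at, Sqle 1415993_at and Msmo1 1423078_a_at), or 17.6%, against 18.4% of all probe sets. Both lay above in 3 (Fdps 1438150_at, Fdft1 1438918_at and 1438919_x_at), or 17.6%, against 19% of all probe sets. Both shares were near those of the whole array. The median difference was -0.05 over the 17 and 0.00 over all probe sets. With 1 probe set per gene it was -0.40 for the members, and with the median over each gene's probe sets -0.30, while the median of all genes stayed at 0.00. The value over the 17 combined a median of 0.20 in TCDD replicate 1 and of -0.50 in TCDD replicate 2 against the DMSO mean, where all probe sets had 0.05 and -0.10. The sign of this median therefore turned on which TCDD array was read, although 6 of the 17 probe sets had both TCDD arrays on 1 side of DMSO.

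TCDD replicate 2 lay at least 0.5 under both DMSO arrays in 7 of the 17 probe sets, or 41.2%, against 14.3% of all probe sets. They were 3 of Hmgcs1, both of Idi1, the brightest of Cyp51 and that of Sqle. It lay at least 0.5 above both DMSO arrays in 3, or 17.6%, against 6.17%. The margin of 0.5 was chosen after the values were seen. TCDD replicate 1 lay that far above in 2 probe sets, those of Hmgcs1 and Idi1 with the suffix _a_at, against 4.26% of all, and that far below in 1, against 8.29%. In 6 of the 17, or 35.3%, TCDD replicate 1 exceeded TCDD replicate 2 by at least 1 unit, against 4.71% of all probe sets, and in 0 was it the other way round, against 2.06%. The median size of the gap was 0.70 between the TCDD arrays and 0.20 between the DMSO arrays over the 17, and 0.20 in each pair over all probe sets. Probe sets of 1 gene share a transcript, so these counts are not 17 separate observations.

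**Figure D2:**
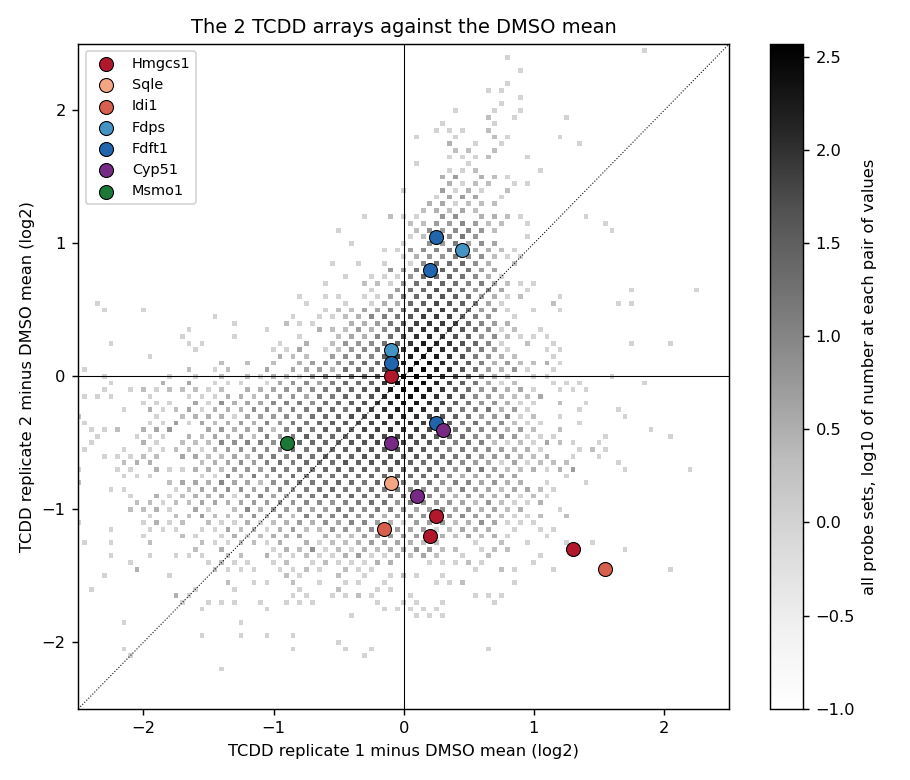
Difference from the DMSO mean in TCDD replicate 1 (horizontal axis, log2) and TCDD replicate 2 (vertical axis, log2), with the 17 probe sets coloured by gene, all probe sets in grey by their number at each pair of values, and the dotted line where both TCDD arrays agree. Hmgcs1 1433443_a_at at 1.3 and -1.3 and Idi1 1423804_a_at at 1.55 and -1.45 lie far from that line, and 3 probe sets of Fdft1 and Fdps lie above it at 0.80 to 1.05 in TCDD replicate 2.

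Signal level was read beside these counts, since bright probe sets were lower in TCDD on these arrays in general. Among probe sets with a DMSO mean from 6 to 7, the median in TCDD replicate 2 was -0.10 and 14.1% lay at least 0.5 under both DMSO arrays; of the 6 cholesterol synthesis probe sets in that range, 3 did. From 7 to 8 the median was -0.35 and the share 27.6%, and 2 of 2 did. From 9 to 10, where Hmgcs1 1433443_a_at lies, the median was -0.55 and the share 44.8%. From 5 to 6 the share was 6.17% and 1 of 5 did, Idi1 1423804_a_at, and from 4 to 5 the share was 1.45% and 0 of 3 did. The part of this level trend in the low values was not tested. Median centring moves each array by a constant and cannot change a level trend, and how far quantile normalization and cyclic loess changed it was not measured. Under these scalings the same 7 probe sets stayed at least 0.5 under both DMSO arrays in TCDD replicate 2 and the same 3 stayed that far above.

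**Figure D3:**
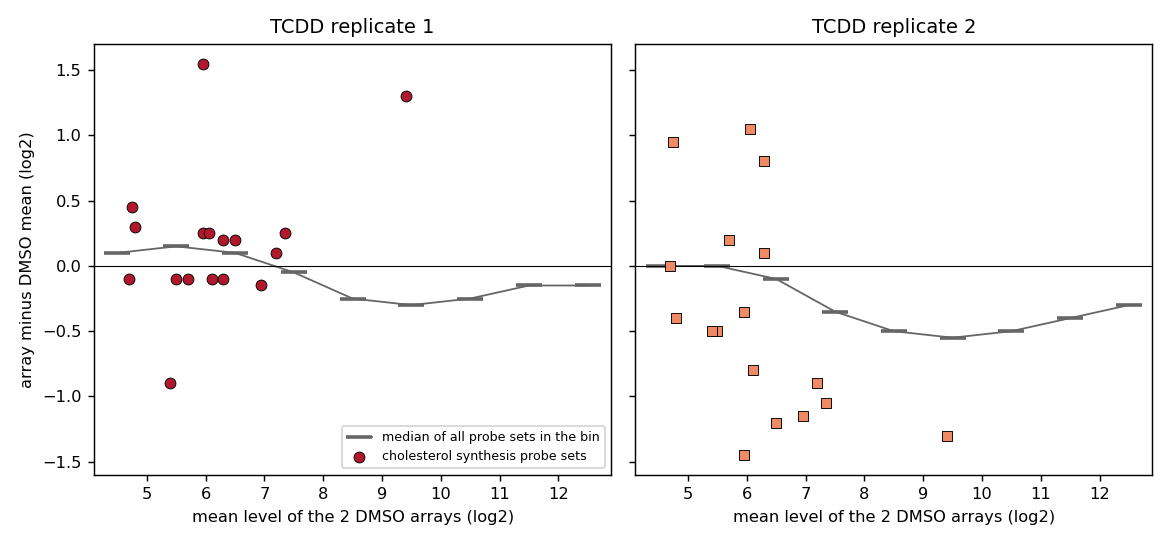
Difference from the DMSO mean (log2, vertical axis) against the mean DMSO level (log2, horizontal axis) for the 17 cholesterol synthesis probe sets in TCDD replicate 1 (left, circles) and TCDD replicate 2 (right, squares), with the grey bars and line giving the median of all probe sets in each bin of 1 unit. In TCDD replicate 2 the probe sets of Hmgcs1, Idi1, Sqle and Cyp51 with differences of -0.80 to -1.45 lie under the line, whose lowest value is -0.55.

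The gap along control transcripts in TCDD replicate 1 ran beside its high values. Both probe sets that stood at least 0.5 above DMSO in that array, Hmgcs1 1433443_a_at and Idi1 1423804_a_at, had a second bright probe set of the same gene that stood at 0.25 or below against the DMSO mean there. The 3′ to middle gap of TCDD replicate 2 lay within the DMSO range for both control genes. The 3′ to 5′ gap was 5.4 and 4.7 in TCDD, against 4.1 and 4.9 in DMSO, for Gapdh, and 4.4 and 3.3 in TCDD, against 4.0 and 3.7 in DMSO, for beta-actin. By that measure TCDD replicate 1 was again the highest array for both genes, though less far from DMSO than by the 3′ to middle gap. TCDD replicate 2 lay within the DMSO range for Gapdh and was the lowest array for beta-actin. B cell markers, 5 of 6 measured, had a median level over the brightest probe set per gene of 6.7 and 6.2 in TCDD, against 6.9 and 6.8 in DMSO. Neutrophil markers, 8 of 8 measured, had 6.85 and 6.4 in TCDD, against 6.4 and 6.05 in DMSO, and macrophage and monocyte markers, 9 of 9 measured, 8.4 and 8.0, against 8.8 and 9.0. T and NK cell markers, 5 of 7 measured, had 5.4 and 5.2 in TCDD, against 5.4 and 5.4 in DMSO. The part of RNA quality and of other cells in the values of the cholesterol synthesis genes was not tested. In a sorted population, fewer cells of a type and less RNA per cell cannot be told apart.

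In the list of other sterol enzymes, some probe sets were higher and as many lower in TCDD, at shares near those of the whole array. This list also holds Hsd17b12, Ggps1 and Dhdds, which act outside the sterol branch. The lower probe sets were of Lbr, Ebp, Sc5d, Hsd17b12 and Ggps1, and the higher ones of Mvk, Mvd, Tm7sf2 and Dhcr7. Of 16 listed genes 14 were measured with 26 probe sets, and 0 were called. Both TCDD arrays lay under both DMSO arrays in 5 probe sets (19.2%, against 18.4% of all) and above in 5 (19.2%, against 19% of all), with a median difference of -0.05. TCDD replicate 2 lay at least 0.5 under both DMSO arrays in 4 of the 26, against 14.3% of all probe sets. It did so in 5 of 13 probe sets of SREBP processing, 9 of 35 of other SREBP targets and 5 of 21 of efflux and transport. Among cell type markers it did so in 9 of 16 probe sets for macrophages and monocytes and 4 of 6 for B cells. For DC it was 1 of 16, and for neutrophils, T and NK cells and erythroid cells 0. A low TCDD replicate 2 was thus not particular to the cholesterol synthesis genes. Mvk, mevalonate kinase, stood at 6.8 and 7.3 in TCDD, against 6.7 and 6.4 in DMSO. Mvd, which decarboxylates mevalonate pyrophosphate, stood at 6.6 and 7.2 in TCDD, against 6.4 and 6.3 in DMSO. Tm7sf2, a sterol reductase, stood at 6.7 and 7.4 in TCDD, against 6.5 and 6.2 in DMSO. On these probe sets, as on 2 of the 4 of Fdft1, TCDD replicate 2 was highest and TCDD replicate 1 just above DMSO. A second bright probe set of Mvd stood at 6.3 and 6.2 in TCDD and at 6.3 and 6.1 in DMSO, and one of Mvk at 6.3 and 6.4 in TCDD, against 5.9 and 5.7 in DMSO. Lbr, the lamin B receptor, which is also a sterol reductase, stood at 7.9 and 7.4 in TCDD, against 8.4 and 9.0 in DMSO, a difference of -1.05 (SE 0.323; limma adjusted p = 0.379). Hsd17b12, a ketoacyl-CoA reductase of fatty acid elongation, stood at 7.8 and 8.2 in TCDD, against 8.9 and 8.6 in DMSO, and Ebp, a sterol isomerase, at 7.4 and 7.4, against 8.3 and 7.5. Another Hsd17b12 probe set that was not dim overlapped, at 6.7 and 7.5 in TCDD and 7.3 and 6.9 in DMSO.

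Of 10 listed genes that sense sterols and process SREBP, 7 were measured with 13 probe sets. Both TCDD arrays lay under both DMSO arrays in 5 (38.5%, against 18.4% of all and 24.1% of those not dim). They lay above both DMSO arrays in 0, against 19% of all and 15.9% of those not dim. That count was 1 under quantile normalization and 1 under cyclic loess. The median difference was -0.35, with 0 called; it was -0.175 under quantile normalization, -0.217 under cyclic loess and -0.15 without TCDD replicate 2. The DC and macrophage markers also had lower medians in both TCDD arrays, and their part in these values was not tested. Insig2, the second Insig protein, stood at 6.9 and 6.3 in TCDD, against 7.0 and 7.2 in DMSO. Its other probe sets stood at 6.3 and 5.3 in TCDD, against 6.3 and 6.2 in DMSO, and at 5.6 and 4.8, against 5.6 and 5.9. In all 3 TCDD replicate 2 was the lowest array, as in the bright probe sets of Hmgcs1 and Idi1. Scap stood at 6.9 and 7.0 in TCDD, against 7.5 and 7.2 in DMSO, a difference of -0.40 (SE 0.143; limma adjusted p = 0.409). Srebf1, which encodes SREBP1, stood at 7.9 and 7.6 in TCDD, against 8.2 and 8.0 in DMSO. Srebf2, the gene of SREBP2 itself, stood at 7.1 and 6.9 in TCDD, against 7.6 and 6.9 in DMSO, and the groups overlapped. The protease gene Mbtps1 stood at 7.0 and 6.6 in TCDD, against 7.4 and 7.5 in DMSO, and Vcp, an ATPase of protein degradation, at 7.6 and 8.2, against 9.1 and 9.0. Another Mbtps1 probe set that was not dim overlapped, at 7.0 and 6.8 in TCDD and 6.8 and 6.9 in DMSO.

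Among other SREBP targets, mostly of fatty acid synthesis, 35 probe sets of 16 genes had a median difference of 0.00, with 6 lower (17.1%, against 18.4% of all) and 5 higher (14.3%, against 19% of all) without overlap and 0 called. Scd2, a fatty acid desaturase, stood at 8.1 and 7.7 in TCDD, against 8.6 and 9.0 in DMSO, a difference of -0.90 (SE 0.238; limma adjusted p = 0.379). Fasn, fatty acid synthase, stood at 7.3 and 6.5 in TCDD, against 7.3 and 7.3 in DMSO. Stard4, a sterol carrier, stood at 6.5 and 6.2 in TCDD, against 6.8 and 6.7 in DMSO. In Fasn the low value belonged to TCDD replicate 2 alone, whereas on these probe sets Scd2 and Stard4 were lower in both TCDD arrays. Acly, which supplies cytosolic acetyl-CoA, resembled Hmgcs1 on its brightest probe set, with 10.8 and 8.8 in TCDD, against 9.5 and 9.6 in DMSO. Another Acly probe set that was not dim stood at 7.6 and 7.0 in TCDD, against 7.2 and 8.0 in DMSO. Fads1, a desaturase, stood at 6.7 and 6.3 in TCDD, against 6.9 and 7.0 in DMSO, and Fads2, another, at 6.0 and 5.8, against 5.7 and 5.7.

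Genes of sterol efflux, esterification and transport were lower without overlap in 7 of 21 probe sets (33.3%, against 18.4% of all) and higher in 2 (9.52%, against 19% of all), over 14 of 17 listed genes. The median difference was -0.20, with 0 called. Of the 21, 17 were not dim, and among all probe sets that were not dim 24.1% were lower and 15.9% higher without overlap. Mylip, the ubiquitin ligase that marks lipoprotein receptors for degradation, stood at 7.3 and 6.6 in TCDD, against 8.5 and 7.8 in DMSO, a difference of -1.20 (SE 0.407; limma adjusted p = 0.401). Abca1, a cholesterol exporter, stood at 6.6 and 6.2 in TCDD, against 6.7 and 6.9 in DMSO, and its partner Abcg1 at 9.0 and 8.7, against 9.2 and 9.2. Npc2, which carries cholesterol out of lysosomes, stood at 11.4 and 11.0 in TCDD, against 11.8 and 11.4 in DMSO. Its other probe set, also not dim, stood at 9.7 and 10.2 in TCDD, against 11.0 and 10.6 in DMSO. Cyp27a1, which makes an oxysterol, stood at 8.4 and 9.1 in TCDD, against 9.2 and 9.1 in DMSO, and Lpcat3, a phospholipid acyltransferase, at 7.1 and 7.1, against 7.5 and 7.1. Mylip, Abcg1 and that other Npc2 probe set were lower in both TCDD arrays. For Abca1 the probe sets disagreed, since 1 other that was not dim stood at 6.2 and 5.9 in TCDD, against 5.7 and 5.8 in DMSO, and a dim one at 4.2 and 4.3, against 4.1 and 4.1. Under quantile normalization the median of this list was 0.01, so its direction depended on the scaling.

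**Figure D4:**
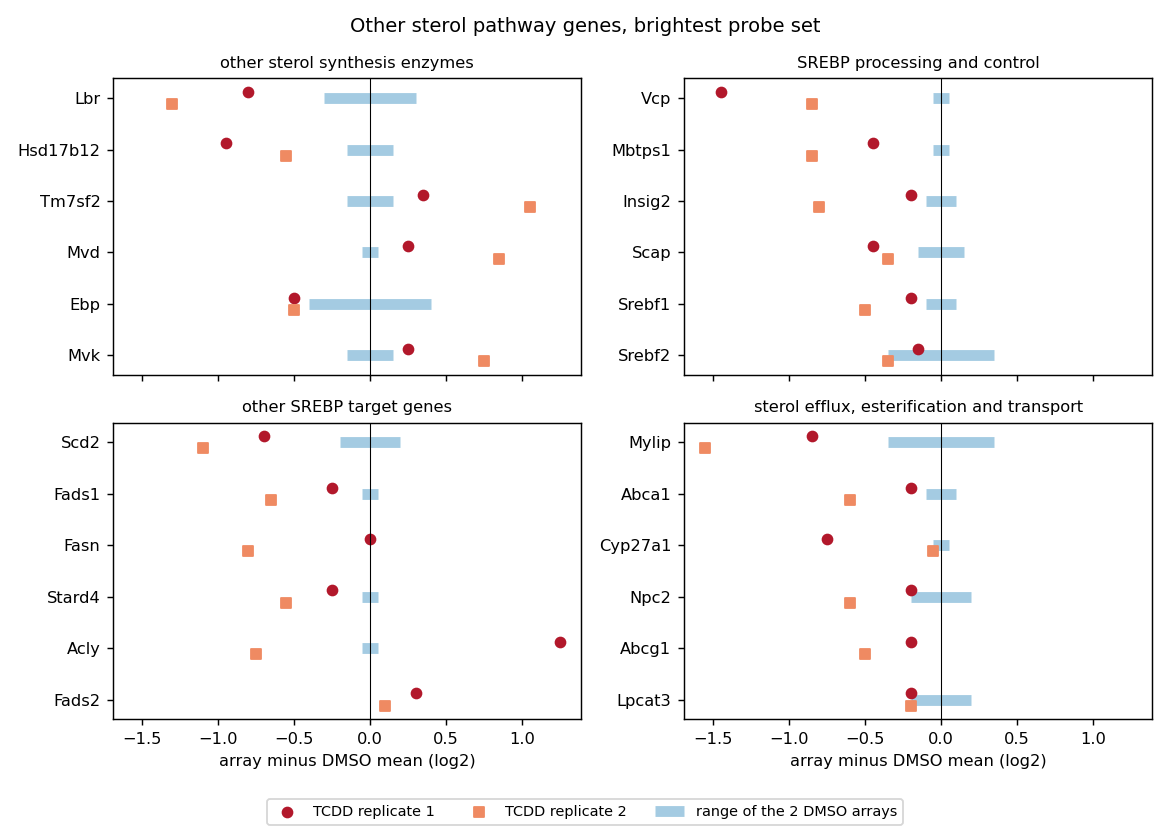
Difference from the DMSO mean (log2, horizontal axis) in TCDD replicate 1 (circles) and TCDD replicate 2 (squares) for the 6 genes named from each of the other sterol lists, on the brightest probe set, with blue bars for the range of the 2 DMSO arrays (of no width for Fasn, Fads2 and Abcg1). Tm7sf2, Mvd and Mvk lie on the higher side with TCDD replicate 2 at 0.75 to 1.05, whereas all 6 genes of SREBP processing lie at or below 0.

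The genes most like the members were sought by the root mean square distance, over the 4 arrays, between centred profiles and the mean profile of the brightest probe set of each of the 7 genes. That profile stood at 0.17 and -0.40 in TCDD replicates 1 and 2, against 0.05 and 0.18 in DMSO. Jam2, Klf9, Mdp1, Mtdh, Natd1 and Ran came out at a distance of 0.016, tied with others to 9 genes in all, and 80 genes lay within 0.05. With 4 arrays and values in steps of 0.1, such likeness is common.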

How the data were processed

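RNA of each of the 4 samples was hybridised to 1 Affymetrix mouse array. The authors deposited log2 values; the submitters' processing notes name RMA and no software version. Each value has 1 decimal. Leaving out 64 control probe sets gave 22626 for testing. By GEO's platform annotation 20380 of these have 1 gene symbol, 691 several and 1555 none.

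The comparison of TCDD with DMSO used lmFit and eBayes of limma 3.58.1 (R 4.3.3; two-sided) on all 4 arrays, with Benjamini-Hochberg adjustment over the 22626 probe sets. SEs are moderated. Differences are TCDD minus DMSO. The prior had 1.03 degrees of freedom, and 741 probe sets had the same value in both arrays of each group. The fit was tested on simulated data: unrounded values gave back the changes put in, whereas values rounded to 1 decimal gave unbiased differences but no calls for the smallest change and calls for part of the larger ones. Arrays give no counts, so their number limits the precision.

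The members and lists were chosen with earlier results of these data known. All member probe sets are named. From each other list the 6 genes with the largest difference on their brightest probe set, if not dim, are named, with Srebf1, Srebf2, Scap and Insig2 always. Alternatives were 3 further scalings, a filter on dim probe sets, a replicate block, other priors and thresholds, 1 value per gene and leaving out each array. A check of the replicate numbers gave a correlation of -0.189 between the groups' replicate differences across probe sets, so they are not taken as pairs.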

Additional observations from a re-analysis of the deposited data

How the results depend on the processing

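Limma called 0 probe sets, and 0 of the members, with a replicate block, as well as under the 3 further scalings, without dim probe sets, per gene (brightest or median), with a trended robust prior or no moderation, at an adjusted p under 0.10 and with each array left out. The crossed replicate block, added after the data were seen, called 0 too. Members with an unadjusted p under 0.05 in limma numbered 1 with either block and 2 with the trended robust prior. Over all 22626 probe sets the counts were 2047 with the replicate block, 3081 with the crossed one and 2659 with that prior. The replicate block left every difference as it was. For all other settings the cause of a change was not tested, except that values per gene and the removal of dim probe sets leave fewer probe sets by construction, and an array left alone in its group overlaps less easily.

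With 1 array left out, the median difference of the members ranged from -0.50 (without TCDD replicate 1) to 0.20 (without TCDD replicate 2) and that of the other sterol enzymes from -0.25 to 0.075. Members without overlap ranged from 3 to 11 lower (11 without TCDD replicate 1, 6 without DMSO replicate 1) and from 3 to 7 higher (7 without TCDD replicate 2). Members at least 0.5 above DMSO in TCDD replicate 1 ranged from 2 to 4. Lower probe sets without overlap ranged from 6 to 16 for other sterol enzymes, 5 to 8 for SREBP processing, 8 to 18 for other SREBP targets and 7 to 12 for efflux and transport; higher ones from 5 to 10, 0 to 1, 6 to 18 and 3 to 7. Shares of all probe sets with an array left out are not given, so these counts are not a result about these genes. With an array left out, the difference of Hmgcs1 1433443_a_at ranged from -1.30 to 1.30 and that of Fdft1 1448130_at from -0.10 to 0.10. Differences that changed sign ranged from -1.20 to 0.20 for Hmgcs1 1433444_at, -1.05 to 0.25 for 1433445_x_at, -1.45 to 1.55 for Idi1 1423804_a_at, -0.15 to 0.25 for Fdps 1423418_at, -0.35 to 0.25 for Fdft1 1438322_x_at, -0.40 to 0.30 for Cyp51 1422534_at and -0.90 to 0.10 for 1450646_at. 

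Cyclic loess gave -0.018 for Fdps 1423418_at and -0.0031 for Idi1 1423804_a_at, 5 members lower without overlap, 1 higher probe set of SREBP processing and 4 of efflux. Quantile normalization gave 1 higher for SREBP processing, 3 for other targets, and 4 lower for efflux; it moved the difference of Hmgcs1 1433443_a_at to 0.30. Median centring gave 2 higher for other targets and 1 for efflux. Without dim probe sets 0 members were at least 0.5 below DMSO in TCDD replicate 1, and 1 was higher in each of other targets and efflux. With 1 probe set per gene, 1 member was higher without overlap, 4 lay at least 0.5 below and 1 above DMSO in TCDD replicate 2 and 1 above in TCDD replicate 1; other targets had 3 higher and 3 lower, efflux 0 and 4. With the median over the probe sets of each gene these were 0, 3, 1 and 1 for the members; other targets had 3 higher and 3 lower, efflux 1 higher, and other sterol enzymes and SREBP processing 3 lower each, with a median of -0.20 for the sterol enzymes. A margin of 0.3 in place of 0.5 gave 9 members below and 3 above in TCDD replicate 2. Shares of all probe sets at that margin, under the other scalings and per gene are not given. The counts in these settings are therefore not a result about these genes. Rounding to 0.1 and 2 arrays per group limit what these values can show.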

Other observations

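The brightest Hmgcs1 probe set had a profile that some genes outside sterol metabolism shared closely. This search was chosen after its values were seen. Fbxo22, an F-box protein of ubiquitin ligases, stood at 9.3 and 6.7 in TCDD, against 8.0 and 8.3 in DMSO. Copb2, a coat protein of Golgi vesicles, stood at 8.9 and 6.5 in TCDD, against 7.6 and 8.1 in DMSO. Wtap, a subunit of the RNA methylation complex, stood at 9.9 and 7.7 in TCDD, against 8.6 and 8.8 in DMSO. In each, TCDD replicate 1 was the highest and TCDD replicate 2 the lowest array, with root mean square distances from Hmgcs1 of 0.0829, 0.109 and 0.166 over 4 arrays.

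Among probe sets that were not dim, TCDD replicate 1 lay at least 0.5 above both DMSO arrays in 19.3% of 1064 with the suffix _x_at, 6.79% of 2548 with _a_at, 6.45% of 961 with _s_at and 4.06% of 9057 with plain _at. The Hmgcs1 and Idi1 probe sets that stood high in that array carry _a_at, and the member probe sets with _x_at stood at 0.25 there against the DMSO mean.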
